A study of Sus scrofa with 6 samples.

Results

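The genes described here are 37 genes of lipid droplets, triglyceride and fatty acid metabolism, taken by symbol from an expression table of 30376 genes measured in pig embryos at the 4-cell stage. All 37 were in the table. Poly(A) RNA was sequenced from embryos cultured at 41.5 °C, the high temperature (3 libraries), and from control embryos cultured at 38.5 °C (3 libraries), each for 4 days and up to the 4-cell stage. In both groups the embryos came from oocytes activated with 2 direct-current pulses of 120 V, so all 6 libraries share electrical activation in place of a labelled fertilization. The genotype field reads HT for the heated libraries and WT for the controls, and no other genetic difference is labelled. The labels give about 300 4-cell samples in lysis buffer for library construction with the SMART-Seq v4 kit. The stated question of the series is how high temperature affects activation of the embryonic genome.

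Pig oocytes and early embryos are known for their many lipid droplets, stores of triglyceride wrapped in a phospholipid layer and coated with perilipins. Triglyceride is built on glycerol 3-phosphate by acyltransferases and phosphatidate phosphatases, and lipases release its fatty acids again. Acyl-CoA synthetases then activate these fatty acids, which are elongated, desaturated, stored or carried into mitochondria for beta-oxidation. SREBP factors switch on genes of fatty acid and sterol synthesis, and PPAR alpha switches on genes of fatty acid oxidation.

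Libraries held 28114005 to 30079385 reads assigned to genes. Markers of the oocyte and early embryo, such as DNMT1, DPPA3 and BMP15, summed to 4393 to 5538 TPM in heated libraries and 4688 to 5920 TPM in controls, where TPM, the deposited transcript share, is a level scaled for gene length and depth. Of the cumulus and granulosa markers FSHR, AMH, FOXL2, CYP11A1 and INHA had 0 counts in every library, as had the adipocyte markers ADIPOQ, CFD and PLIN1. The cumulus and granulosa list summed to 19.5 to 27.99 TPM in heated libraries and 17.02 to 21.1 TPM in controls, most of it from NR5A2 and INHBA. The stromal and blood list, of whose 12 genes LUM was at 0, summed to 8.44 to 12.96 TPM in heated libraries and 11.6 to 12.9 TPM in controls, and the adipocyte list to 9.09 to 13.5 TPM in heated libraries and 7.09 to 16.1 TPM in controls, most of it from PPARG. Whether replicates came from separate cultures is not labelled. The p-values therefore reflect only how much these libraries vary, and that variation may be technical. In pools of embryos, less RNA per embryo and fewer embryos that hold the transcript cannot be told apart.

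Among the 37 lipid genes a small number held most of the summed level. Of the 37 genes 9 averaged at least 10 TPM over the 6 libraries, 8 lay between 1 and 10 TPM and 20 lay under 1 TPM. ACSL3, ELOVL6 and ACADM together made up 69.0 ± 2.15% of the summed TPM of the 37 genes in heated libraries and 69.4 ± 0.411% in controls (SD, n = 3 each). The whole set summed to 603, 618 and 636 TPM in the heated libraries and to 638, 604 and 622 TPM in the controls. These sums overlapped between the temperatures.

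**Figure D1:**
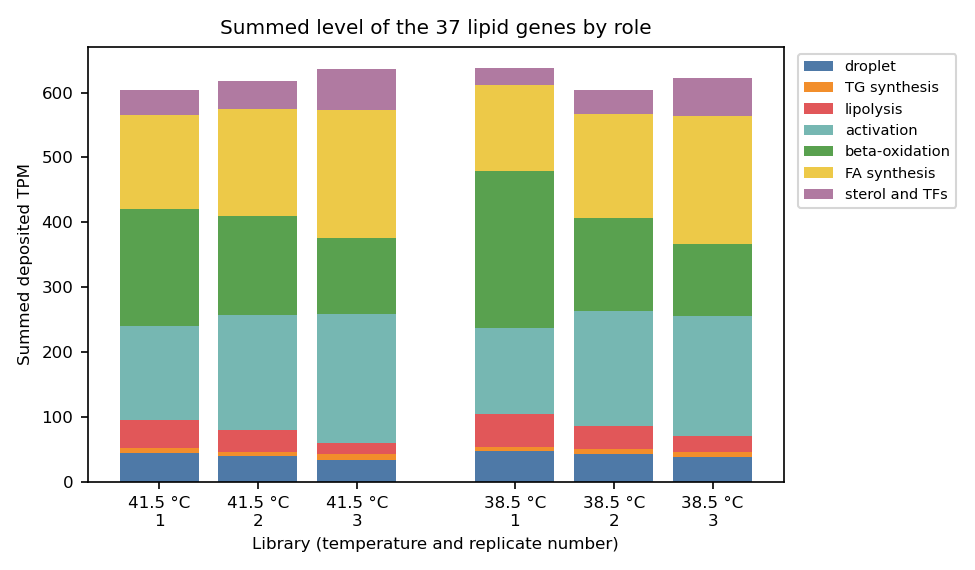
Summed deposited TPM (vertical axis) of the 37 lipid genes in each of the 6 libraries (horizontal axis, temperature and replicate number), stacked by role. Totals lie between 603 and 638 TPM in all libraries, while the beta-oxidation share is largest in the library numbered 1 of each temperature.

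No lipid gene passed the test for a difference between the temperatures. By the edgeR quasi-likelihood test on counts, adjusted over the 16056 genes tested, 0 of the 29 lipid genes with enough reads to test passed an adjusted p of 0.05, against a background of 0% of all genes. At an unadjusted p below 0.05 it was again 0 of 29, beside 1.85% of all genes tested, and DESeq2 also called 0, beside 0.0202% of all genes it tested, with 0 at an unadjusted p below 0.05 (1.58% of all genes). Of the 29, 16 were estimated higher and 13 lower at 41.5 °C, where 47.5% of all tested genes were estimated higher. Their median log2 fold change was 0.02, against -0.02 over all tested genes, and the median size of the change without regard to sign was 0.21 against 0.20. In 0 of the 29 did the 3 heated libraries all lie above or all below the 3 controls in CPM (TMM-scaled counts, a level scaled for depth only), beside 7.71% of all tested genes.

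The precision of these estimates differed between genes, and not by abundance alone. A 2-fold difference in either direction lay outside the 95% interval for 13 of the 29 lipid genes (44.8%, against 49.7% of all tested genes) and a 4-fold difference for 25 of 29 (beside 91.8% of all tested genes). A 2-fold difference lay inside the interval for ACADM, ABHD5 and CPT1A, all above 10 TPM (standard errors 0.49, 0.47 and 0.49). It lay outside the interval for BSCL2 and SCD, at 1.81 and 1.56 TPM (standard errors 0.31 and 0.27). The 8 lipid genes beyond these 29 did not pass the expression filter and are given by their counts. Every edgeR adjusted p of the 29 genes was 0.999923, so the unadjusted p is given with genes named below.

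**Figure D2:**
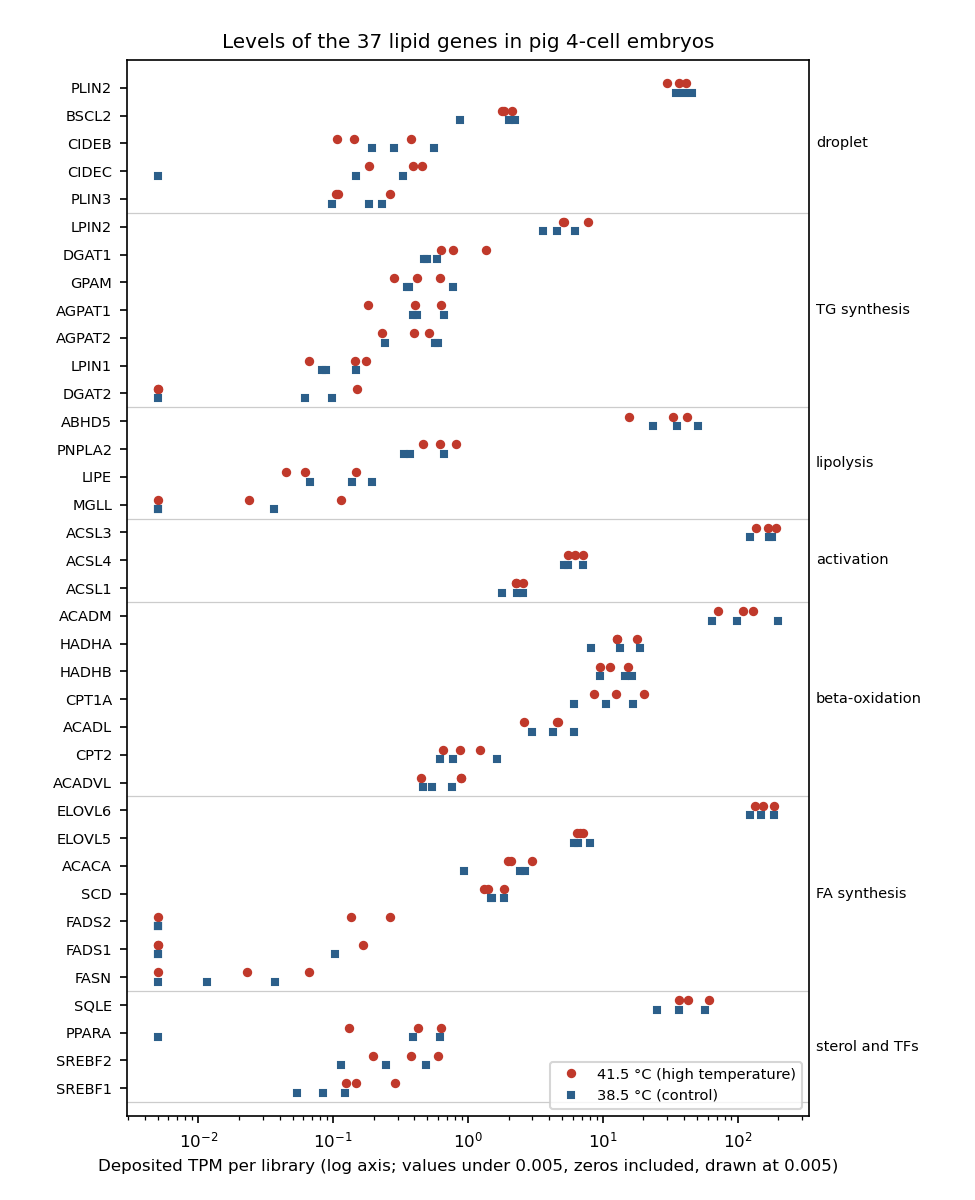
Deposited TPM per library (horizontal log axis, zeros drawn at the left end) for all 37 lipid genes, grouped by role, with red circles for 41.5 °C and blue squares for 38.5 °C, 3 libraries each. Levels span from about 161 TPM for ACSL3 to 0.023 TPM for FASN, and the temperatures overlap in most genes.

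**Figure D3:**
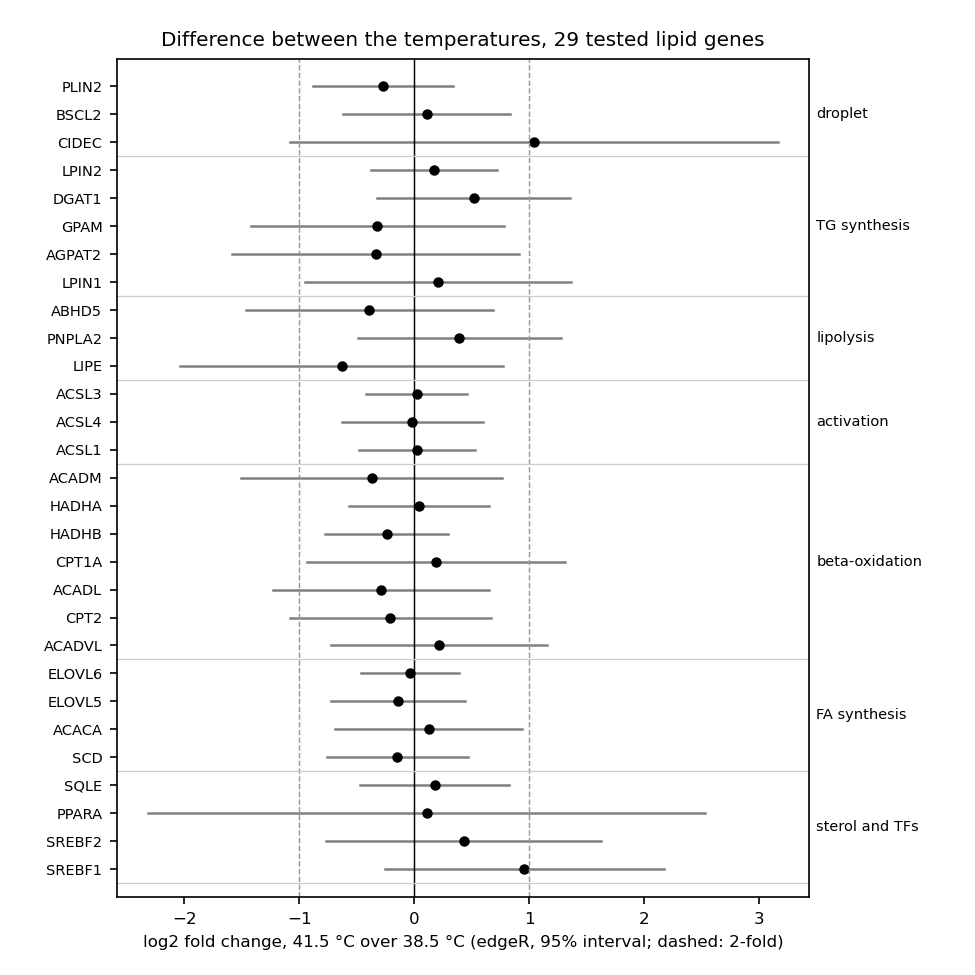
Estimated log2 fold change (horizontal axis, 41.5 °C over 38.5 °C) with its 95% interval from edgeR for the 29 tested lipid genes, grouped by role; dashed lines mark a 2-fold difference. Every interval includes 0, and those of the low genes PPARA, CIDEC and LIPE are the widest.

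Of the 5 droplet coat and assembly genes among the 37, PLIN2 had the highest level. PLIN2 (chromosome 1, 203683867 to 203709277, Sscrofa11.1), the perilipin that coats droplets in cells other than adipocytes, averaged 36.2 ± 5.68 TPM in heated libraries and 40.3 ± 5.62 TPM in controls (SD, n = 3 each). It had 58.5, 51.6 and 38.5 CPM at 41.5 °C, against 78.4, 55.0 and 46.3 CPM at 38.5 °C. High-temperature replicate 3 lay below every control and the other 2 heated libraries lay inside the control range, with a log2 fold change of -0.27 (standard error 0.26, edgeR unadjusted p = 0.329). PLIN2 overlaps the pseudogene LOC100737553, and the sum of both gave -0.29 (95% interval -0.89 to 0.30). PLIN3, the perilipin that moves between cytosol and droplets, had 14, 5 and 5 counts in heated libraries and 5, 11 and 9 counts in controls. PLIN2 thus held 99.6 ± 0.187% of the summed TPM of these perilipins at 41.5 °C and 99.6 ± 0.196% at 38.5 °C.

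Seipin and the CIDE proteins were low. BSCL2, which encodes seipin of the sites where droplets form at the endoplasmic reticulum, averaged 1.91 ± 0.167 TPM in heated libraries and 1.72 ± 0.733 TPM in controls. Its library values were 3.52, 2.81 and 2.58 CPM at 41.5 °C and 1.77, 3.38 and 3.12 CPM at 38.5 °C, with control replicate 1 the lowest of the 6. The log2 fold change of BSCL2 was 0.11 (standard error 0.31), but -0.13 for its sum with GNG3 and LOC110259246, which it overlaps on the opposite strand. CIDEC, which promotes droplet fusion, had 7, 13 and 15 counts in heated libraries and 5, 11 and 0 counts in controls. Its log2 fold change of 1.04 had a 95% interval from -1.08 to 3.16. CIDEB, its relative known from lipoprotein lipidation in liver, had 5, 5 and 12 counts in heated libraries and 19, 7 and 6 in controls, and overlaps NOP9 and LTB4R2.

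Enzymes of triglyceride synthesis summed to 6.98 to 9.86 TPM in heated libraries and 5.69 to 8.11 TPM in controls. Most of this was LPIN2 (chromosome 6, 103625725 to 103728151), a phosphatidate phosphatase that makes diacylglycerol, with 24.1, 22.8 and 31.8 CPM at 41.5 °C and 19.5, 21.6 and 28.7 CPM at 38.5 °C. The LPIN2 groups overlapped (log2 fold change 0.17, standard error 0.24, edgeR unadjusted p = 0.485). LPIN2 held 97.7 ± 1.30% of the summed TPM of LPIN1 and LPIN2 in heated libraries and 97.7 ± 0.923% in controls. LPIN1 itself had 31, 25 and 11 counts at 41.5 °C and 17, 25 and 14 counts at 38.5 °C.

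The other enzymes of triglyceride synthesis among the 37 were all under 1 TPM. DGAT1, which adds the last fatty acid to diacylglycerol, averaged 0.921 ± 0.386 TPM at 41.5 °C and 0.519 ± 0.0636 TPM at 38.5 °C (SD, n = 3 each). In CPM its values were 2.63, 1.28 and 1.503 in heated libraries and 1.35, 1.45 and 0.995 in controls, which overlapped, whereas its deposited TPM did not (1.36, 0.626 and 0.780 TPM at 41.5 °C against 0.496, 0.591 and 0.470 TPM at 38.5 °C). The log2 fold change of DGAT1 was 0.52 (standard error 0.36, edgeR unadjusted p = 0.193). DGAT1 overlaps HSF1 on the opposite strand, and the sum of both gave 0.38 (95% interval -0.20 to 0.95). HSF1 had 87, 89 and 99 counts in heated libraries and 56, 89 and 70 in controls. These exceeded the DGAT1 counts in each library, so the sum cannot show the change of DGAT1 alone. DGAT2, the other enzyme of this step, had 0, 5 and 0 counts at 41.5 °C and 4, 2 and 0 counts at 38.5 °C, too few to test. GPAM, a mitochondrial acyltransferase of the first step, had 88, 127 and 57 counts in heated libraries and 172, 76 and 72 in controls. AGPAT1 and AGPAT2, which add the second fatty acid, had 4 to 14 counts per heated library and 7 to 16 per control library.

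Among lipolysis genes the cofactor far exceeded its lipase. ABHD5 (chromosome 13, 27006331 to 27053760), which activates the triglyceride lipase encoded by PNPLA2, had 42.4, 33.3 and 14.3 CPM in heated libraries and 60.8, 35.1 and 22.2 CPM in controls. Within each temperature ABHD5 spread over 2.97-fold and 2.74-fold, and the difference between groups was smaller (log2 fold change -0.39, standard error 0.47, edgeR unadjusted p = 0.425). PNPLA2 averaged 0.631 ± 0.172 TPM at 41.5 °C and 0.456 ± 0.179 TPM at 38.5 °C. Per length, ABHD5 exceeded PNPLA2 by 90.3, 53.4 and 19.3 times in the heated libraries and by 136, 106 and 35.4 times in the controls. These ratios overlapped between the groups and rest on 16 to 37 PNPLA2 counts per library. LIPE, the hormone-sensitive lipase, had 5, 4 and 11 counts in heated libraries and 6, 14 and 10 in controls. LIPE overlaps ATP5SL on the opposite strand. The log2 fold change was -0.63 for LIPE and -0.06 for the sum of both. ATP5SL had 116, 108 and 76 counts in heated libraries and 96, 109 and 85 in controls. Most of the sum was thus ATP5SL, so it cannot show what LIPE did. MGLL, the monoglyceride lipase, had 10, 3 and 0 counts in heated libraries and 0, 0 and 4 in controls.

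Of the acyl-CoA synthetases ACSL3 was the most abundant, and it had the highest mean TPM of the 37 genes. ACSL3 (chromosome 15, 124741986 to 124816955), known from the endoplasmic reticulum and nascent lipid droplets, averaged 165 ± 27.6 TPM in heated libraries and 157 ± 29.7 TPM in controls, and ranked 604 of 30376 genes by mean TPM. Its values were 491, 600 and 642 CPM at 41.5 °C, against 506, 608 and 595 CPM at 38.5 °C. The groups covered nearly the same range (log2 fold change 0.02, 95% interval -0.42 to 0.45). ACSL4, which prefers arachidonic acid, had 28.8, 25.2 and 20.3 CPM in heated libraries and 33.8, 21.8 and 19.6 CPM in controls. ACSL1 had 7.08, 7.85 and 6.34 CPM in heated libraries and 6.497, 7.72 and 6.73 CPM in controls. For both the heated values lay inside or close to the control range, with log2 fold changes of -0.02 for ACSL4 (standard error 0.27) and 0.02 for ACSL1 (0.22). ACSL3 held 94.9 ± 1.28% of the summed TPM of these synthetases at 41.5 °C and 94.9 ± 1.42% at 38.5 °C.

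**Figure D4:**
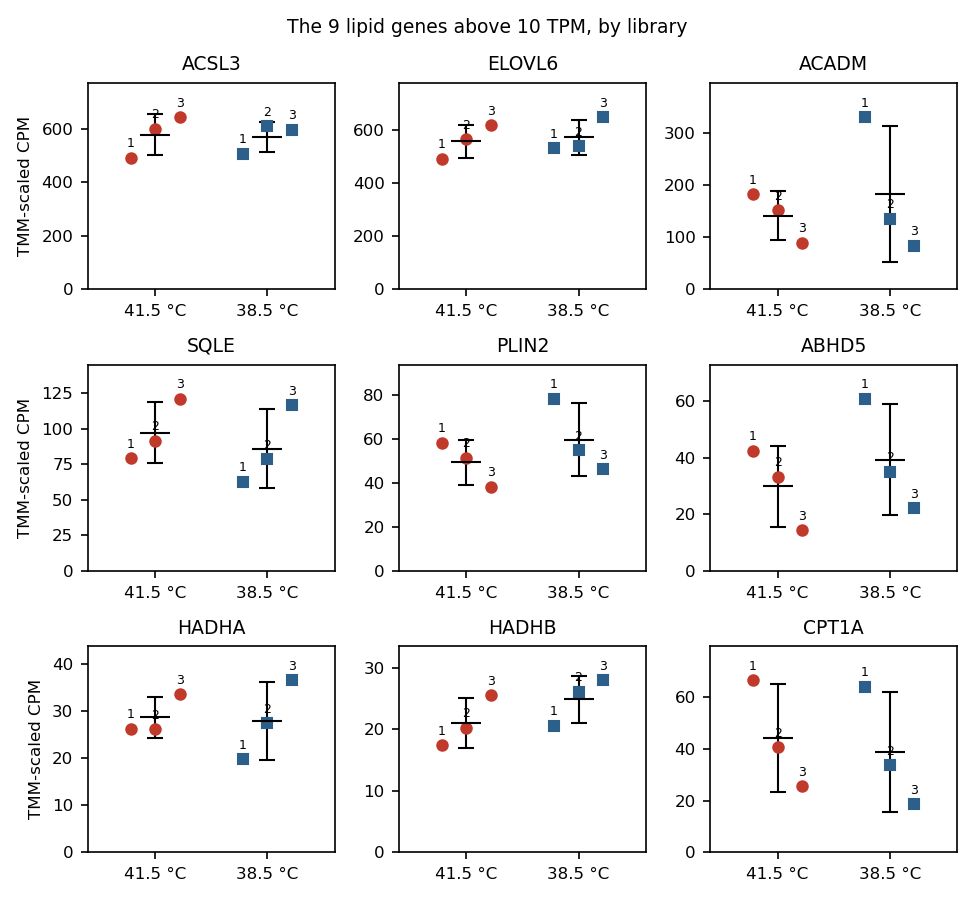
TMM-scaled CPM (vertical axes, from 0) of the 9 lipid genes above 10 TPM, with red circles for 41.5 °C on the left and blue squares for 38.5 °C on the right of each panel; digits are replicate numbers and bars show the mean ± SD (n = 3). The groups overlap in each panel, and ACADM, CPT1A and ABHD5 spread most within a group.

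The transcript for the gate of mitochondrial fatty acid entry was present at moderate levels. CPT1A (chromosome 2, 4250642 to 4293914), which makes acylcarnitine at the outer membrane and limits the rate of beta-oxidation, had 66.5, 40.8 and 25.5 CPM in heated libraries and 64.1, 33.8 and 18.6 CPM in controls. The groups overlapped over almost their whole range (log2 fold change 0.19, standard error 0.49, edgeR unadjusted p = 0.707). Without high-temperature replicate 1 the estimate was -0.23 and without control replicate 3 it was -0.15. CPT2, which turns acylcarnitine back into acyl-CoA at the inner membrane, averaged 0.923 ± 0.295 TPM at 41.5 °C and 1.013 ± 0.546 TPM at 38.5 °C.

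Medium-chain acyl-CoA dehydrogenase had the highest level of the 3 dehydrogenases among the 37. ACADM (chromosome 6, 137541481 to 137575544) had 183, 152 and 89.5 CPM in heated libraries and 329, 135 and 83.8 CPM in controls. Control replicate 1 stood above the other 5 libraries, while the 3 heated values fell between the control extremes. The log2 fold change was -0.37 (standard error 0.49, edgeR unadjusted p = 0.472), and without control replicate 1 it was 0.37. ACADL, the long-chain enzyme, had 6.09, 5.87 and 3.10 CPM in heated libraries and 9.30, 5.44 and 3.65 CPM in controls (log2 fold change -0.29, standard error 0.41). ACADVL, the very-long-chain enzyme, averaged 0.745 ± 0.255 TPM at 41.5 °C and 0.589 ± 0.154 TPM at 38.5 °C, and overlaps DLG4 and DVL2. ACADM held 95.7 ± 0.349% of the summed TPM of these dehydrogenases in heated libraries and 95.7 ± 0.931% in controls.

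Both subunits of the mitochondrial trifunctional protein, which carries out the later steps for long chains, had similar levels. HADHA, the alpha subunit (chromosome 3, 112753343 to 112797627), averaged 14.5 ± 3.03 TPM in heated libraries and 13.5 ± 5.37 TPM in controls. HADHB, the beta subunit, lies beside it (112712894 to 112753121) and averaged 12.1 ± 3.05 TPM in heated libraries and 13.5 ± 3.53 TPM in controls. HADHA had 26.2, 26.1 and 33.6 CPM at 41.5 °C and 19.8, 27.4 and 36.5 CPM at 38.5 °C, so the heated values lay inside the control range (log2 fold change 0.04, standard error 0.26). HADHB had 17.4, 20.2 and 25.5 CPM at 41.5 °C and 20.6, 26.1 and 27.9 CPM at 38.5 °C, with overlap between the groups (log2 fold change -0.24, standard error 0.23, edgeR unadjusted p = 0.328). The ratio of HADHA to HADHB by TPM was 1.33, 1.14 and 1.16 in heated libraries and 0.847, 0.924 and 1.15 in controls. Only control replicate 3 lay within the heated range.

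Of the 7 genes of fatty acid synthesis, elongation and desaturation among the 37, an elongase had the highest level. ELOVL6 (chromosome 8, 112038670 to 112190079), which lengthens saturated and monounsaturated chains of up to palmitate length, averaged 158 ± 26.1 TPM in heated libraries and 153 ± 32.3 TPM in controls. It had 493, 565 and 618 CPM at 41.5 °C and 532, 539 and 648 CPM at 38.5 °C. The ranges nearly coincided (log2 fold change -0.04, 95% interval -0.46 to 0.39). ELOVL5, the elongase of polyunsaturated chains, had 15.2, 14.7 and 12.5 CPM in heated libraries and 20.8, 12.9 and 13.2 CPM in controls, with control replicate 1 above the rest (log2 fold change -0.14, standard error 0.25).

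The enzymes that make palmitate were far less abundant than the elongase. ACACA, acetyl-CoA carboxylase, which provides malonyl-CoA for synthesis and elongation, had 14.7, 15.6 and 21.9 CPM in heated libraries and 8.38, 19.4 and 20.0 CPM in controls. Control replicate 1 was the lowest of the 6 ACACA values, and the estimate was near 0 (log2 fold change 0.13, standard error 0.35). FASN, the fatty acid synthase, had 12, 4 and 0 counts in heated libraries and 0, 7 and 2 counts in controls, too few to test. SCD, the delta-9 desaturase, averaged 1.52 ± 0.290 TPM at 41.5 °C and 1.604 ± 0.201 TPM at 38.5 °C.

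FADS1 and FADS2, the desaturases of polyunsaturated chains, were near the limit of detection. FADS1 had 0, 0 and 5 counts in heated libraries and 0, 0 and 3 in controls. FADS2 had 9, 5 and 0 counts in heated libraries and 0 counts in all 3 controls. The span of FADS2 overlaps the long noncoding RNA gene LOC100739565 on the opposite strand, which had 132, 77 and 95 counts at 41.5 °C and 61, 51 and 80 counts at 38.5 °C, and the library kit does not mark strand.

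Squalene epoxidase, the sterol enzyme among the 37, exceeded the 3 transcription factors listed with it. SQLE (chromosome 4, 14669789 to 14700152), an oxygen-requiring step of cholesterol synthesis, had 79.3, 91.8 and 121 CPM in heated libraries and 62.9, 78.6 and 117 CPM in controls. The groups overlapped over most of their range (log2 fold change 0.18, standard error 0.28, edgeR unadjusted p = 0.546). The regulators were all under 1 TPM. SREBF2, the factor for sterol genes, had 48, 25 and 71 counts in heated libraries and 15, 30 and 59 in controls. SREBF1, the factor for fatty acid genes, had 12, 14 and 27 counts in heated libraries and 6, 12 and 8 in controls, with a log2 fold change of 0.96 (95% interval -0.26 to 2.17, edgeR unadjusted p = 0.106). PPARA, the factor for oxidation genes, had 20, 14 and 4 counts in heated libraries and 21, 12 and 0 in controls. All 4 genes of this role were estimated higher at 41.5 °C, 0 of them past the test.

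Some lipid genes had the same highest and lowest library number at both temperatures. Over the 29 tested genes the median fold between the highest and the lowest library was 1.72 at 41.5 °C and 1.86 at 38.5 °C. In 8 of the 29 (27.6%, beside 20.0% of all tested genes) the library numbered 1 was the highest and that numbered 3 the lowest at both temperatures. These were PLIN2, ABHD5, ACSL4, CPT1A, ACADM, ACADL, ACADVL and PPARA. In 5 of the 29 (17.2%, beside 16.9% of all tested genes) the library numbered 3 was the highest and that numbered 1 the lowest at both temperatures. These were HADHB, CPT2, ELOVL6, ACACA and SQLE. Of the 7 beta-oxidation genes 4 had the first pattern and 2 the second, and among the 7 the widest spreads in controls were 3.93-fold for ACADM and 3.44-fold for CPT1A.

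Other measures also differed between the libraries. Total counts were 28892695, 28668286 and 28114005 in heated libraries 1, 2 and 3 and 30079385, 29038434 and 28869484 in controls 1, 2 and 3. Mitochondrially encoded genes took 27.3%, 25.5% and 24.5% of the counts in the heated libraries and 24.2%, 21.5% and 22.003% in the controls. Every heated value of this share lay above every control. The cumulus and granulosa list summed to 27.99, 26.5 and 19.5 TPM in the heated libraries and 21.1, 21.03 and 17.02 TPM in the controls. Their part in the spread of the lipid genes was not tested, and the labels do not say what a replicate number stands for.

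**Figure D5:**
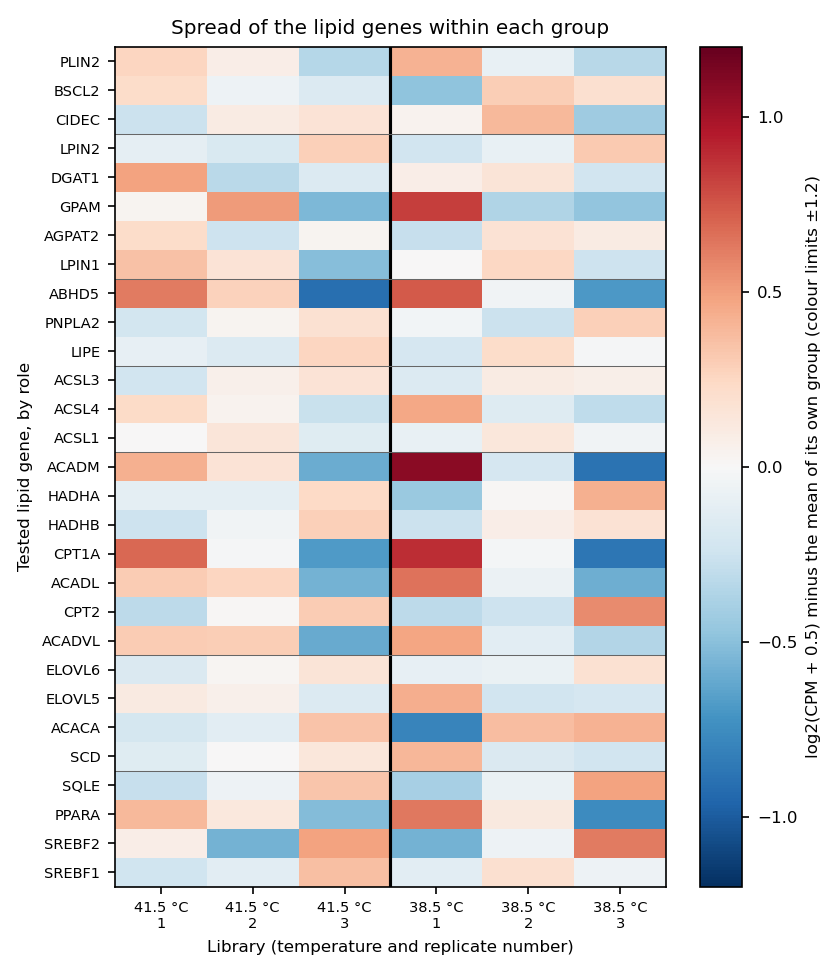
Deviation of each tested lipid gene from the mean of its own group (colour, log2(CPM + 0.5)) in the 6 libraries (columns, 41.5 °C left and 38.5 °C right), with genes in rows by role. ACADM, CPT1A, ABHD5 and ACADL are highest in library 1 and lowest in library 3 at both temperatures, while SQLE, ACACA, CPT2 and HADHB show the opposite.

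Other genes of the same pathways were examined as 6 lists, with 165 rows in the table, 123 of them with enough reads to test. By edgeR 0 of the 123 passed, 50 were estimated higher and 73 lower at 41.5 °C, and the median log2 fold change was -0.07, against -0.02 over all tested genes. At an unadjusted p below 0.05 there were 5 of 123, beside 1.85% of all tested genes. These were MOGAT1, FADS3, TECR, PNPLA4 (1 of its 2 rows) and MSMO1, of which all but MOGAT1 were named after their values were seen. In 11 of the 123 the libraries did not overlap, 5 higher and 6 lower at 41.5 °C, beside 3.66% and 4.05% of all tested genes.

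The fatty acid uptake and binding list had the highest summed level of the 6, 1324 to 2037 TPM in heated libraries and 1550 to 2341 TPM in controls, with 8 of 16 tested genes estimated higher and 8 lower. CD36, a fatty acid translocase, had 481, 579 and 396 CPM in heated libraries and 697, 582 and 411 CPM in controls. FABP5, a fatty acid binding protein, averaged 462 ± 191 TPM at 41.5 °C and 495 ± 225 TPM at 38.5 °C. Both groups overlapped in both genes, with log2 fold changes of -0.21 (standard error 0.25) for CD36 and -0.23 (0.48) for FABP5.

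The remaining droplet proteins had 3 of 13 tested genes estimated higher and 10 lower. Their median log2 fold change was -0.13. Over all 23 rows of this list, tested or not, the summed level was 378 to 444 TPM in heated libraries and 467 to 557 TPM in controls. These sums did not overlap. By CPM, 0 of the 13 tested genes had libraries that did not overlap. The sum over all 165 related rows, which includes this list, did not overlap either (3153 to 3471 TPM in heated libraries, 3580 to 3818 TPM in controls). Sums of each of the other lists overlapped. How often such sums separate for other sets of genes was not computed. TPM is a share of all transcripts, and mitochondrially encoded genes took a larger share of the counts in every heated library than in any control. The part of that share in these sums was not tested. PNPLA4, a lipase of the family of PNPLA2, has 2 rows in the table. The more abundant PNPLA4 row had 65.6, 83.8 and 104 CPM in heated libraries and 97.1, 137 and 149 CPM in controls (log2 fold change -0.60, 95% interval -1.18 to -0.02, edgeR unadjusted p = 0.0451, adjusted p = 0.999923). The other PNPLA4 row had a log2 fold change of -0.45 (95% interval -1.09 to 0.20). RAB18, a small GTPase found on droplets and also named after its values were seen, had 243, 255 and 118 CPM in heated libraries and 502, 254 and 149.7 CPM in controls (log2 fold change -0.55, 95% interval -1.61 to 0.51). PLIN1, the adipocyte perilipin, had 0 counts in every library. PLIN4 had at most 3 counts per heated library and 7 per control library, and PLIN5, the perilipin of oxidative tissues, at most 16 and 10. Glycerolipid synthesis had 11 of 22 tested genes estimated higher and 11 lower. GPAT3, an acyltransferase of the first step, had 1.54, 2.85 and 1.80 CPM at 41.5 °C and 1.92, 2.14 and 1.33 CPM at 38.5 °C. GPAT4 had 2, 9 and 17 counts in heated libraries and 0, 12 and 0 in controls.

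MOGAT1, a monoacylglycerol acyltransferase, had 74, 33 and 101 counts in heated libraries and 0 counts in all 3 controls. Its pooled level was at least 66.6-fold higher at 41.5 °C with 3 counts in the pooled controls as the floor. The edgeR adjusted p was 0.515, while DESeq2 gave 1.8e-06. MOGAT1 (chromosome 15, 124568449 to 124607925) lies almost wholly inside the pseudogene LOC100523928 (124565266 to 124607923), which had 120, 153 and 141 counts in heated libraries and 159, 210 and 243 in controls. The sum of both gave a log2 fold change of -0.03 (95% interval -0.55 to 0.50). No source used here gives how reads of overlapping genes were assigned, so the MOGAT1 counts are uncertain.

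Further fatty acid synthesis genes had 5 of 17 tested estimated higher and 12 lower. ACLY, which supplies cytosolic acetyl-CoA, had 27.1, 27.2 and 22.2 CPM in heated libraries and 37.5, 25.5 and 25.2 CPM in controls. HSD17B12, a reductase of the elongation cycle, averaged 34.4 ± 7.79 TPM at 41.5 °C and 36.5 ± 12.5 TPM at 38.5 °C. Both overlapped between the groups, and HSD17B12, unlike FASN, stood near the level of PLIN2. FADS3, a member of the fatty acid desaturase family, had 24, 16 and 13 counts in heated libraries and 4, 7 and 3 in controls, which did not overlap (log2 fold change 1.84, 95% interval 0.53 to 3.15, edgeR unadjusted p = 0.0118, adjusted p = 0.999923). TECR, the last reductase of the elongation cycle, had 3.59, 2.46 and 1.83 CPM in heated libraries and 1.85, 0.827 and 0.929 CPM in controls, with overlap between the groups (log2 fold change 1.13, 95% interval 0.19 to 2.08, edgeR unadjusted p = 0.0245, adjusted p = 0.999923).

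Other oxidation genes had 14 of 31 tested estimated higher and 17 lower. Their median log2 fold change was -0.06. ACAA2, the mitochondrial thiolase, had 4.82, 3.05 and 0.947 CPM in heated libraries and 5.96, 4.00 and 1.86 CPM in controls. ETFDH, which passes electrons from the dehydrogenases to ubiquinone, averaged 4.55 ± 0.704 TPM at 41.5 °C and 4.80 ± 0.671 TPM at 38.5 °C. SLC25A20, the carnitine carrier between CPT1A and CPT2, averaged 2.01 ± 0.716 TPM at 41.5 °C and 2.22 ± 0.414 TPM at 38.5 °C. ACADS, the short-chain dehydrogenase, had 9, 13 and 0 counts in heated libraries and 0, 12 and 12 in controls. PPARG averaged 11.3 ± 2.22 TPM at 41.5 °C and 10.7 ± 4.601 TPM at 38.5 °C, above PPARA, and PPARGC1A, a coactivator of oxidation genes, 0.317 ± 0.0458 TPM at 41.5 °C and 0.357 ± 0.107 TPM at 38.5 °C.

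Sterol synthesis and uptake had 9 of 24 tested genes estimated higher and 15 lower. Their median log2 fold change was -0.08. FDFT1, squalene synthase, which precedes SQLE in the pathway, had 123.3, 156 and 198 CPM in heated libraries and 98.6, 145 and 219 CPM in controls. HMGCS1 averaged 11.99 ± 0.903 CPM at 41.5 °C and 15.2 ± 2.84 CPM at 38.5 °C (log2 fold change -0.34, standard error 0.22). INSIG1, which retains SREBP in the endoplasmic reticulum, averaged 2.04 ± 0.683 TPM at 41.5 °C and 2.07 ± 0.859 TPM at 38.5 °C. MSMO1, a sterol demethylase, had 119.7, 189 and 192 CPM in heated libraries and 244, 242 and 245 CPM in controls, which did not overlap (log2 fold change -0.55, 95% interval -1.06 to -0.03, edgeR unadjusted p = 0.0414, adjusted p = 0.999923). FDFT1, HMGCS1 and INSIG1 overlapped between the groups and did not pass the test.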

How the data were processed

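Poly(A) RNA of 3 high-temperature and 3 control libraries was analysed. Per the submitters' processing notes, Trimmomatic 0.38, HISAT2 2.1.0, HISAT, Bowtie2 and StringTie 2.1.3b were used with Sscrofa11.1; no source used here gives the role of each. The authors deposited raw read counts per gene, FPKM and TPM in a table of the series, and FPKM, TPM and mean coverage per gene for each library (coverage per the file headers, not used in tests). Positions came from the library files, and all 37 lipid genes lay at their RefSeq positions.

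Counts were tested with edgeR 4.0.16 (TMM, filterByExpr, quasi-likelihood, group as the only term) in R 4.3.3, with Benjamini-Hochberg adjustment over 16056 genes and a threshold of 0.05; standard errors are the log2 fold change over the root of F. The 24 rows without a symbol, tRNA and rRNA with 0.527% to 0.658% of counts, were kept, and left out in an alternative. DESeq2 1.42.0, limma 3.58.1 on log2(FPKM + 1) and similar scales, other scalings and filters, a replicate block and leaving out each library were alternatives. The edgeR step was tested on simulated data.

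The lipid genes and the lists of related and marker genes were chosen with earlier results of these data known. The 15 most abundant lipid genes by mean TPM were described in full, the rest by counts or means, and the related genes named were set by list whatever their result, except a few that are not reported here. Libraries were mapped to groups by their titles and temperatures. The kit does not mark strand, and 13 of the 37 lipid genes overlap another counted gene.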

Additional observations from a re-analysis of the deposited data

How the results depend on the processing

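No alternative called any of the lipid genes. The lowest adjusted p was 0.197, for ABHD5 by DESeq2 with the replicate block. That setting gave no adjusted p to at least ELOVL5, ACADL, ACSL1 and ACACA, so it could not call them. Over all tested genes 0 were called by edgeR, against 3 with the replicate block (0.0187%), 5 by DESeq2 (0.0202%) and 1 without the filter on low counts. DESeq2 with the block, an alternative chosen after seeing the data, called 129 of the 5078 genes given an adjusted p (2.54%). Of the related genes edgeR called 0 of 123, and 1 of 123 with the block (MOGAT1, adjusted p = 0.0371). DESeq2, which fitted 156 of them, called 1 (MOGAT1), and 3 with the block. How many of the 156 were given an adjusted p with the block was not counted. Those 3 therefore have no share to set beside the 2.54%. The replicate numbers were not taken to pair the libraries, since the labels do not say what they stand for. Deviations from the group mean correlated at 0.642, -0.00229 and 0.721 for numbers 1, 2 and 3. High-temperature replicates 1 and 3 each correlated best with the control of the same number, but replicate 2 with control replicate 1 (0.18). The block lowered the common dispersion, the edgeR measure of spread between libraries, from 0.1086 to 0.03172. With the block the edgeR standard error was smaller for some lipid genes (ACSL3, 0.10 against 0.19) and larger for others (SREBF1, 0.58 against 0.53). Whether the numbers mark a shared batch was not tested.

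Lipid genes whose libraries did not overlap numbered 0 of 29 as reported, beside 7.71% of all tested genes. The count was 1 of 37 by DESeq2, 1 of 29 with RLE size factors and 1 of 29 with no scaling. It was 1 of 28 without mitochondrially encoded and unnamed rows. In each of these the gene was SREBF1, higher at 41.5 °C. On log2(FPKM + 1) and log2(FPKM + 0.1) it was 1 of 19 and on log2(TPM + 1) 1 of 21 (DGAT1, higher). The share over all genes was not computed for these alternatives, so the counts have no background beside them. Leaving out 1 library gave 1 to 3 of 29 to 32 lipid genes, where fewer libraries have to separate. Their median difference on the log2 scale, 0.02 as reported, came to 0.11 with no scaling, 0.0788 on log2(FPKM + 0.1), 0.0755 on log2(TPM + 1) and -0.0716 to 0.0668 without 1 library; no scaling put the median of all genes at 0.0777 in place of -0.0167.

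Of 244 alternative values for the 15 most abundant genes, 212 kept their direction and 32 turned, none past the test. ELOVL6 was 0.054 with no scaling, 0.058 on log2(FPKM + 1), 0.059 on log2(FPKM + 0.1) and 0.055 on log2(TPM + 1). ACSL4 was 0.01 with the block, 0.000 by DESeq2 with the block, 0.10 with no scaling, 0.082 on log2(FPKM + 1), 0.10 on log2(FPKM + 0.1) and 0.085 on log2(TPM + 1). Without 1 library the log2 fold change ranged from -0.73 to 0.066 for ABHD5, -0.18 to 0.32 for ACACA, -0.56 to 0.14 for ACADL, -0.73 to 0.37 for ACADM, -0.062 to 0.12 for ACSL1, -0.06 to 0.12 for ACSL3 and -0.17 to 0.26 for ACSL4. It ranged from -0.23 to 0.75 for CPT1A, -0.27 to 0.12 for ELOVL5, -0.089 to 0.058 for ELOVL6, -0.16 to 0.28 for HADHA and -0.006 to 0.46 for SQLE. Control replicate 1 turned 10 of these when left out: ACSL3, ACADM, SQLE, ABHD5, HADHA, ELOVL5, ACSL4, ACADL, ACSL1 and ACACA. PLIN2 (-0.435 to -0.034 without 1 library), HADHB (-0.374 to -0.122) and LPIN2 (0.042 to 0.351) kept their direction in every alternative. The cause was not tested. Depth limits the 8 untested genes, with at most 19 counts per library.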
